A study of Caenorhabditis elegans with 6 samples.

Results

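The *skr* genes of *Caenorhabditis elegans* encode relatives of Skp1, the adaptor of the SCF ubiquitin ligases. In these ligases a cullin scaffold carries a RING protein at one end, and at the other end Skp1 holds an F-box protein that picks the substrate to be marked with ubiquitin. The nematode has expanded this single adaptor into a family. SKR-1 is the general adaptor of the worm's SCF ligases, and SKR-7, SKR-8, SKR-9 and SKR-10 are known from the worm as cullin-binding relatives whose depletion by RNA interference disturbs body morphogenesis. The set described here, *skr-7*, *skr-8*, *skr-9*, *skr-10*, *skr-12*, *skr-13* and *skr-14*, was taken by symbol, as *skr-7* and its close paralogs. Of these 7 genes, 6 have a row among the 21507 genes of the deposited table, and *skr-9* was not analysed here. The set was chosen by the difference of *skr-7* between knockout and wild type in these libraries, that is by its normalized counts and its place in the authors' deposited comparison, so the differences of its members are described without a test.

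The worms were L4 hermaphrodites, the last larval stage, untreated and extracted as whole bodies. One group was wild type, titled N2, the laboratory strain (3 samples), and the other was a glna knockout (3 samples). The glna genes encode glutaminases, and the labels do not say which of them the knockout lacks. Values are normalized counts, in which the reads of a gene are scaled by the size factor of the library, and whole reads were recovered from them. Nothing in the labels states that the samples of a group were separate cultures, so the p-values below cover the spread between samples alone, and that spread may be technical.

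Each library held 18443661 to 19861540 reads assigned to genes. As a check of the labels, *glna-2* was lower in every knockout library (37.4 to 69.5 normalized counts) than in any wild-type library (408 to 519), as was *glna-3* (83.1 to 175 against 636 to 761). The values of *glna-1* were also lower in every knockout library, by less (128 to 187 against 255 to 270). Knockout replicate 1 stood apart from the other knockout libraries, with chi-square statistics of 121 and 124 per degree of freedom against them, where the other replicate pairs gave 17.8 to 25.2. Markers of intestine, body wall muscle, hypodermis, neurons, pharynx, germline, sperm and oocytes were all read in every library. RNA was taken from whole bodies, so more cells of a type and more RNA per cell cannot be told apart.

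In the Ensembl annotation of WBcel235 all 7 genes have models of 1 exon that hold the coding sequence alone, and 6 of them lie in divergent pairs. The deposited models differ for *skr-14*, which spans 1083 bases with a gene length of 668, and for *skr-12*, which spans 794 bases with a length of 666. *skr-14* (V:4420995-4422077, minus strand) and *skr-7* (V:4422406-4423065, plus strand; both as the deposited table gives them) point away from each other, with 851 bases between their Ensembl models and 328 between the deposited ones. A cluster of 5696 bases on chromosome IV holds the pairs *skr-13* with *skr-9* and *skr-8* with *skr-12*, 957 and 1439 bases apart. Each of the 3 pairs joins a gene for a protein of 194 residues (*skr-7*, *skr-8* or *skr-9*) to a gene for a shorter one, of 172 residues for *skr-12* and *skr-13* and 168 for *skr-14*. *skr-10*, for a protein of 192 residues, stands alone on chromosome IV, 1214711 bases from *skr-13*. In the deposited table *skr-8* spans IV:17165189-17165853 (minus strand), *skr-10* IV:15946790-15947439 (plus), *skr-12* IV:17167258-17168051 (plus) and *skr-13* IV:17162028-17162624 (minus). No other listed gene overlaps any of the 6 members. Closely related genes can share reads, and the labels do not say how reads that fit several copies were counted, so how reads were divided among the members is uncertain.

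**Figure D1:**
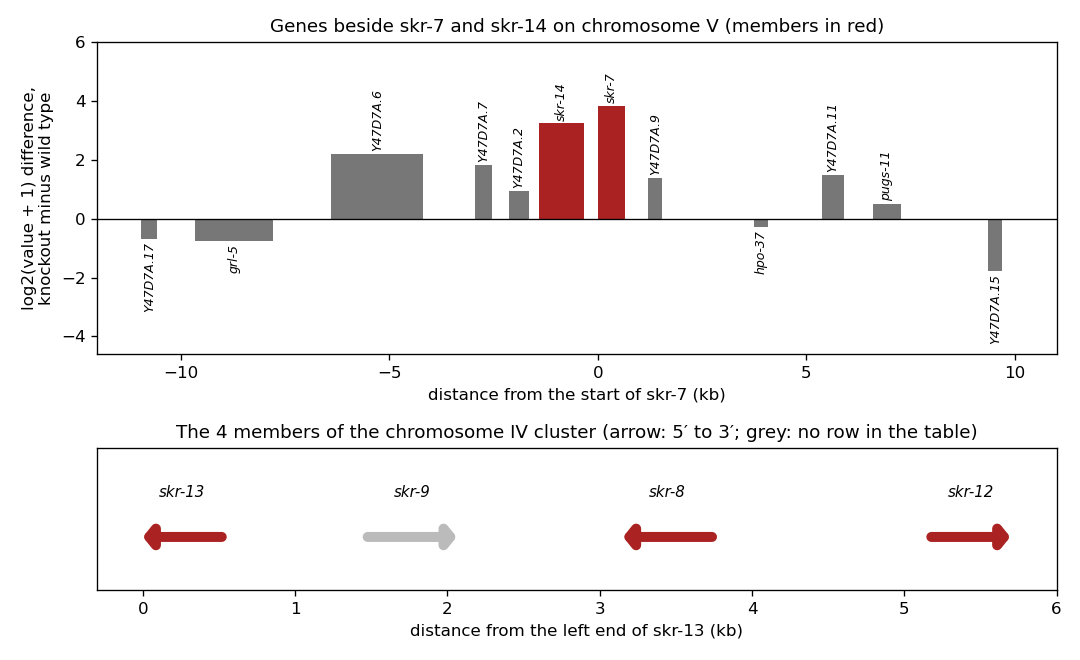
Upper panel: log2(value + 1) difference, knockout minus wild type, of *skr-7*, *skr-14* (red) and the 10 listed genes beside them (grey), against distance from the start of *skr-7* in kb; bar width is gene length, with a minimum for visibility. *skr-14* and *skr-7* show the 2 largest differences, 3.24 and 3.84. Lower panel: the chromosome IV cluster to scale, with arrows from 5′ to 3′ and *skr-9*, which has no row, in grey.

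The members were nearly silent in wild type and were read in the knockout, at low levels. Summed over the 6 members, the wild-type libraries held 1, 5 and 1 reads in replicates 1, 2 and 3. The knockout libraries held 76, 23 and 30 reads. The members' lowest knockout total thus lay above their highest wild-type total. These reads were 0.0108% to 0.0579% of all *skr* reads in the wild-type libraries and 0.243% to 1.01% in the knockout libraries. Of the 6 members, 4 had no read in any wild-type library, as had 857 of the 21507 listed genes. Genes without any read are not listed, so these 4 have a row only through their knockout reads. A read in every knockout library was found for 3 of the 6 members. In 3 members (*skr-7*, *skr-10* and *skr-14*) every knockout value lay above every wild-type value, as it did for 12.3% of all listed genes. Nothing is read from these counts, because this contrast chose the set.

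*skr-7* had 0 normalized counts in each of the 3 wild-type libraries and 48.0, 2.87 and 14.5 in knockout replicates 1, 2 and 3, from 41, 3 and 15 reads. All 3 knockout libraries were above wild type, but they differed from one another far more than the wild-type libraries did. Replicate 1 alone gave 69.5% of the reads, and replicate 2 was at the level of 3 reads that serves here as the floor of a library. The knockout mean was 21.8 ± 23.4 normalized counts (SD, n = 3), an SD as large as the mean. From pooled reads, the knockout level of *skr-7* was 20.7-fold the floor of 3 reads over the whole wild-type group. This ratio takes the knockout reads as exact, so it is not a lower limit that allows for their error. Without knockout replicate 1 the ratio was 8.89. The log2 difference was 3.84 on the log2(value + 1) scale and 6.92 in the authors' deposited table; for a gene with no wild-type read such a value depends on how the zeros are treated.

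*skr-14*, the divergent neighbour of *skr-7*, had 0 in each wild-type library and 15.2, 5.74 and 6.75 normalized counts in knockout replicates 1, 2 and 3, from 13, 6 and 7 reads. Replicate 1 was again highest, with the others close together. Its knockout mean was 9.23 ± 5.20 (SD, n = 3). From pooled reads, its knockout level was 9.11-fold the floor of the wild-type group, and 6.42-fold without knockout replicate 1. The spread of *skr-14* between knockout libraries was smaller than that of *skr-7*: the highest and lowest libraries had 13 and 6 reads, against 41 and 3.

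*skr-10* was the member read in every library. It had 0.997, 1.97 and 0.937 normalized counts in wild type replicates 1, 2 and 3, from 1, 2 and 1 reads, and 12.9, 8.61 and 5.79 in knockout replicates 1, 2 and 3, from 11, 9 and 6 reads. The groups did not overlap. From the pooled reads of each group (26 and 4), *skr-10* was 6.83-fold higher in the knockout, with an exact 95% interval of 2.37 to 26.9 that covers counting error only. Without knockout replicate 1 the ratio was 5.56.

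The members of the chromosome IV cluster stayed close to or below the floor. *skr-12* had 0, 2.96 and 0 normalized counts in wild type replicates 1, 2 and 3 and 7.02, 4.78 and 0 in knockout replicates 1, 2 and 3. Its groups overlapped, and the pooled ratio of 3.85 had an exact 95% interval of 1.02 to 21.5 from 11 and 3 reads. *skr-13* had no wild-type read, and had 3, 0 and 1 reads in knockout replicates 1, 2 and 3. For *skr-8* the knockout reads were 2, 0 and 1, also with none in wild type. At this depth a difference of *skr-8* was not detectable, since both groups were at or under the floor of 3 reads; *skr-13* was above it by 1 read.

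**Figure D2:**
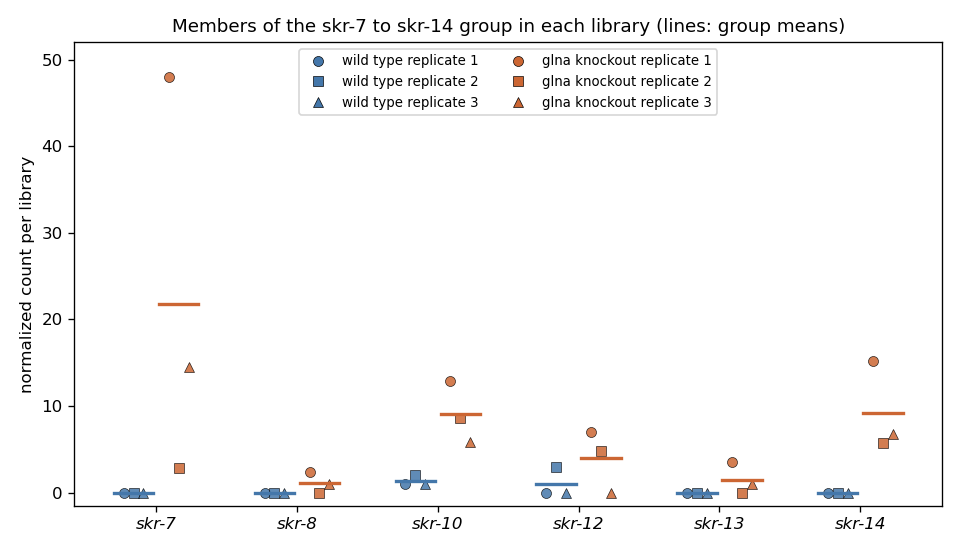
Normalized counts of the 6 members in each library; blue symbols are wild type, orange symbols the knockout, symbol shapes mark replicates and lines are group means. Knockout replicate 1 (circle) is the highest value of every member, and *skr-7* has the widest spread, from 2.87 to 48.0.

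Per kb of gene length, the knockout levels were 33.0 ± 35.5 normalized counts for *skr-7*, 13.98 ± 5.49 for *skr-10*, 13.8 ± 7.79 for *skr-14*, 5.91 ± 5.38 for *skr-12*, 2.50 ± 3.04 for *skr-13* and 1.66 ± 1.77 for *skr-8* (SD, n = 3 each). Neighbours in this order differed by less than the SD of the higher one, except *skr-14* and *skr-12*, whose difference was marginally larger than it. The place of *skr-7* at the head of the members depends on the library. In knockout replicate 1 it led with 72.7 normalized counts per kb, and in replicate 3 with 21.9. In replicate 2 its level was 4.35, below *skr-10* (13.2), *skr-14* (8.59) and *skr-12* (7.18). *skr-14* was second in all 3 knockout libraries, at 22.8, 8.59 and 10.1 in replicates 1, 2 and 3.

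A gene with reads in every knockout library and in no wild-type library was uncommon. The pattern was met by *skr-7* and *skr-14* among the members and by 81 genes in all, 0.377% of those listed. It was met by 9.45% of the 857 listed genes with no wild-type read. No gene without a read in any library is listed, so each of the 857 had a knockout read. Genes silent in both groups are not in this share. Ranked by knockout reads, *skr-7* (59 reads) and *skr-14* (26 reads) headed the 81, and another Skp1-related gene, *skr-15* (21 reads), had rank 4. The median of the 81 was 6 reads. These ranks describe the values that chose the set and are no separate support for it.

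Sums of markers of several tissues also differed from wild type in some or all knockout libraries. The summed level of the 8 oocyte markers, all found, was 7418 to 13429 normalized counts for wild type and 53998, 15492 and 16503 in knockout replicates 1, 2 and 3, the same order of libraries as for *skr-7* and *skr-14*. Yolk protein genes (6 of 6 found) summed to 266665 to 365772 in wild type and 1663030, 571669 and 437383 in knockout replicates 1, 2 and 3. Wild type replicate 1 had an oocyte sum of 13429, near the 15492 of knockout replicate 2, and no read of *skr-7* or *skr-14*, against 3 and 6 reads. With so few reads, nothing is read from this comparison of 2 libraries. Pharynx markers (5 of 5 found) summed to 39017, 23791 and 21568 in knockout replicates 1, 2 and 3, above the wild-type sums of 16799 to 17942. Body wall muscle markers (5 of 5 found) reached 391767 in knockout replicate 1, where the other libraries of both genotypes lay between 213750 and 258053. For sperm markers (7 of 7 found) knockout replicates 1 and 3, at 14140 and 14505, lay below the wild-type sums of 17318 to 23415, and replicate 2, at 17594, lay among them. Germline markers (7 of 7 found) summed to 48016, 37639 and 32734 in knockout replicates 1, 2 and 3, and to 32440 to 38007 in wild type. Neuron sums were 4476 to 4852 in the knockout and 4244 to 4437 in wild type. For intestine and hypodermis the ranges of the groups overlapped. Yolk, pharynx, body wall muscle and germline sums were highest in knockout replicate 1, but were higher in replicate 2 than in replicate 3, unlike *skr-7* and *skr-14*. The part of these tissues in the members' levels was not tested. Of 9 early embryo markers 7 were found, among them *end-1* and *end-3*, which specify the gut lineage. They summed to 9.86 to 14.05 normalized counts for wild type and 6.69 to 11.7 for the knockout, where 2 of the 7 had no read.

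The rest of the family was examined for differences with the genotype. Of 14 other *skr* genes named, 13 had a row and 12 passed the filter, which asks for a mean normalized count of 10 or more; among the members, *skr-7* alone passed it, through its knockout values. limma, fitted to log2(value + 1) of all 15169 genes that passed, called 0 of the 12 other *skr* genes at an adjusted p under 0.05, where it called 0.356% of all genes tested. At that share a count of 0 among 12 genes says little. An unadjusted p under 0.05 was found for 1 of the 12, *skr-11*, against 22.6% of all genes tested. edgeR on the recovered reads also called 0 of the 12, and 9 of all genes tested. In the limma fit *skr-7*, the only member that passed the filter, was not called either. The authors' deposited table calls *skr-7* higher, as it does 2.83% of all listed genes, and gives the other 5 members an adjusted p of 1. This comparison chose the set, so nothing is read from the calls of its members. Of the 13 other *skr* genes with a row, the authors' deposited table calls 1 higher, *skr-11*.

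*skr-1*, the general adaptor, averaged 3819 ± 170 normalized counts in knockout libraries against 3626 ± 56.3 in wild-type ones (SD, n = 3 each; log2 fold change 0.07, SE 0.10, limma adjusted p = 0.688). Its close relative *skr-2* averaged 1487 ± 131 against 1411 ± 78.1, and *skr-3* 1296 ± 162 against 1275 ± 149. Per kb of gene length, *skr-1* stood at 3379 normalized counts for wild type and 3559 for the knockout, where the highest value of a member in any library was 72.7. The levels of *skr-4*, *skr-17*, *skr-18*, *skr-19* and *skr-20* lay between 148 and 822 normalized counts in knockout libraries and between 133 and 851 in wild-type ones, as group means. At lower levels, *skr-16* averaged 42.0 ± 3.27 in the knockout against 42.0 ± 6.31, *skr-21* 35.8 ± 1.89 against 31.7 ± 5.10, and *skr-5* 14.3 ± 4.87 against 9.11 ± 5.53. The median log2 fold change of the 12 tested genes was 0.09, and of all genes tested 0.01.

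*skr-11* and *skr-15* showed the largest differences among the other family members. *skr-11* (F13A7.9, chromosome V), annotated as a pseudogene in the table, had 20.9, 14.8 and 14.05 normalized counts in wild type replicates 1, 2 and 3 and 49.1, 44.0 and 42.4 in knockout replicates 1, 2 and 3. The groups were far apart and each was tight. Its log2 fold change was 1.41 (SE 0.27, limma adjusted p = 0.0689), which did not pass, while the authors' deposited table gives it an adjusted p of 0.00856. *skr-15* (F54D10.1, chromosome II) had 0 in each wild-type library and 14.04, 3.83 and 4.82 in knockout replicates 1, 2 and 3, and did not pass the filter. From pooled reads, its knockout level was 7.35-fold the floor of the wild-type group, from 21 reads.

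**Figure D3:**
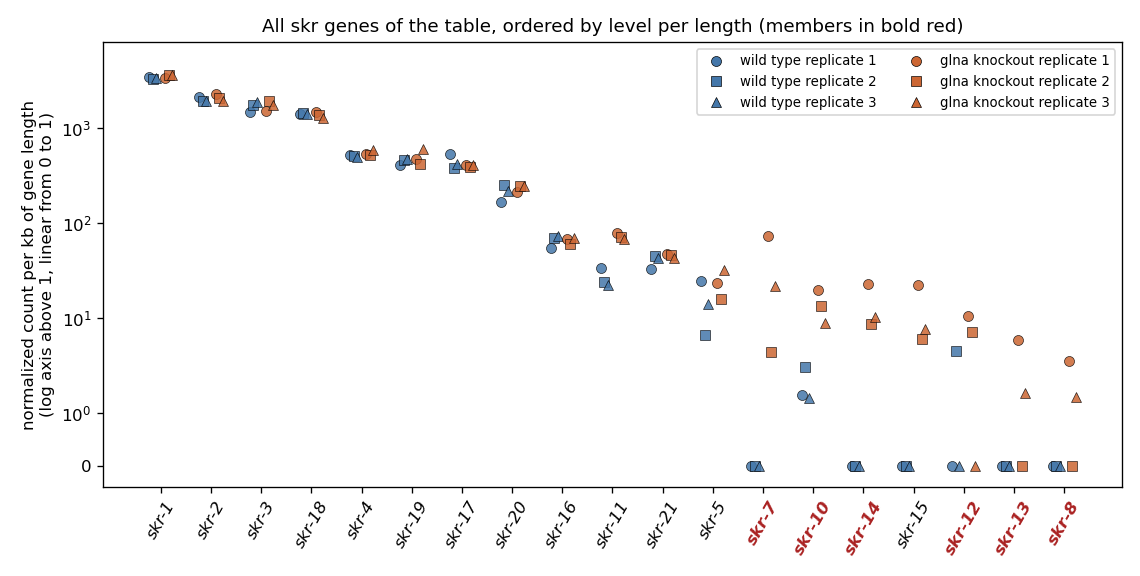
Normalized counts per kb of gene length for all 19 *skr* genes of the table, by library (log axis above 1, linear from 0 to 1), ordered by mean level; members are in bold red. The 6 members and *skr-15* fill the lower end and lie at or near 0 in wild type, whereas *skr-1* lies at 3379 in wild type and 3559 in the knockout.

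None of the listed cullin-RING core genes or F-box receptors passed limma over all genes. With 0.356% of all genes called, counts of 0 in lists this short say little about these genes. Not all of the core genes are partners of SKR proteins. All 23 listed core genes of the cullin-RING ligases were tested, and limma called 0, against 0.356% of all genes tested. They are cullins, RING subunits, the NEDD8 pathway that activates cullins and the COP9 signalosome that reverses it, with *cand-1*, *elc-1*, *elb-1* and *ddb-1*. An unadjusted p under 0.05 was found for 2 of them, against 22.6% of all genes tested, and their median log2 fold change was 0.06. By the authors' deposited adjusted p, 1 was lower and 0 higher, against 5.75% of all listed genes called in either direction. *cand-1*, which exchanges Skp1 and F-box modules on the cullin, averaged 4614 ± 1215 normalized counts in knockout libraries against 3884 ± 102 (limma adjusted p = 0.477). *cul-3*, the scaffold for BTB adaptors, averaged 3383 ± 345 against 3377 ± 275 (limma adjusted p = 0.997). The smallest unadjusted p-values were those of *ubc-12*, the NEDD8-conjugating enzyme, and *rbx-1*, the RING subunit. *ubc-12* had 458, 497 and 484 normalized counts in wild type replicates 1, 2 and 3 and 303, 395 and 288 in knockout replicates 1, 2 and 3 (log2 fold change -0.56, SE 0.15, limma adjusted p = 0.103, against 0.0449 from the authors' deposited table). *rbx-1* averaged 906 ± 79.9 in the knockout against 1149.6 ± 125 (log2 fold change -0.34, SE 0.13, limma adjusted p = 0.173). *cul-1*, the scaffold of SCF ligases, averaged 2332 ± 320 against 2256 ± 63.3 (log2 fold change 0.04).

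Among 9 F-box substrate receptors, 9 were tested, 0 were called by limma, 0 by the authors' deposited adjusted p, and an unadjusted p under 0.05 was found for 1. Over all genes tested these shares were 0.356% for limma and 22.6% for the unadjusted p. For the authors' deposited adjusted p the share was 5.75% of all listed genes. The median log2 fold change was 0.25, and of all genes tested 0.01. For 4 of the 9 the groups did not overlap, with the knockout higher in each, as for 12.3% of all listed genes. *lin-23*, the worm's beta-TrCP, which restrains cell division, averaged 2484 ± 188 normalized counts in knockout libraries against 2085 ± 101 (limma adjusted p = 0.225). *sel-10*, the Fbw7 relative that acts on Notch, averaged 2220 ± 268 against 1934 ± 69.0 (limma adjusted p = 0.365). *mec-15*, needed in touch receptor neurons, averaged 677 ± 141 against 492 ± 30.5 (limma adjusted p = 0.165).

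The intracellular pathogen response was included because *skr-3*, *skr-4*, *skr-5* and *cul-6* act in it in the worm; these genes are also in the lists above. Of 16 genes named, 11 had a row and 6 were tested. limma called 0, against 0.356% of all genes tested. The authors' deposited adjusted p called 0, against 5.75% of all listed genes. An unadjusted p under 0.05 was found for 0, against 22.6% of all genes tested. With 6 genes tested at these shares, counts of 0 say little about the response. *pals-5*, its usual reporter gene, had 1 read in wild type and 2 in the knockout. *pals-6* averaged 6.83 ± 2.92 normalized counts in knockout libraries against 14.9 ± 5.42 (log2 fold change -1.04, SE 0.47, limma adjusted p = 0.236).

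Genes beside the members were examined because *skr-7* and *skr-14* share a neighbourhood. Of the 30 listed genes beside the members (5 on each side), 12 were tested and limma called 0 higher and 1 lower. An unadjusted p under 0.05 was found for 6 of the 12, against 22.6% of all genes tested. The authors' deposited adjusted p calls 5 of the 30, of which 3 were higher, against 5.75% of all listed genes. The called gene was C52D10.3, beside the chromosome IV cluster. It had 315, 349 and 360 normalized counts in wild type replicates 1, 2 and 3 and 147, 195 and 167 in knockout replicates 1, 2 and 3 (log2 fold change -1.01, SE 0.15, limma adjusted p = 0.0495). The call was lost without any one wild-type library or without knockout replicate 3, where 0 of the genes beside the members were called, and without knockout replicate 1, where Y47D7A.15, a neighbour of *skr-7*, was called in its place.

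Of the 10 genes beside *skr-7* and *skr-14*, 5 had groups that did not overlap with the knockout higher, and 1 with the knockout lower; of the 20 on chromosome IV these counts were 2 and 2. Over all listed genes the shares were 12.3% and 11.9%. Among the 5, Y47D7A.11 and *pugs-11* were below the filter on low values, with groups barely apart. Y47D7A.11 had 4 reads in wild type replicate 2 and 4 in knockout replicate 1. *pugs-11* had 7, 6 and 7 reads in wild type replicates 1, 2 and 3 and 10, 8 and 10 in knockout replicates 1, 2 and 3. The largest differences lay to the left of *skr-14*. Y47D7A.6 had 17.9, 9.86 and 28.1 normalized counts in wild type replicates 1, 2 and 3 and 136, 57.4 and 74.3 in knockout replicates 1, 2 and 3. Its log2 fold change was 2.22 (SE 0.44, limma adjusted p = 0.0698, against 1.8e-04 as deposited by the authors in their table). Y47D7A.7 had 9.97, 3.94 and 4.68 in wild type replicates 1, 2 and 3 and 49.1, 12.4 and 19.3 in knockout replicates 1, 2 and 3 (log2 fold change 1.82, limma adjusted p = 0.129, against 0.0416 from the authors' deposited table). In both genes replicate 1 was the highest knockout library and replicate 2 the lowest, the order seen for *skr-7*. Y47D7A.15, named after its values were seen, differed the other way, to the right of *skr-7*, with 14123 ± 2110 normalized counts over wild-type libraries against 4406 ± 1988 over knockout ones (SD, n = 3 each; log2 fold change -1.79, SE 0.32, limma adjusted p = 0.0582).

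Genes whose values over the 6 libraries were most like those of *skr-7* were sought among 269 genes, those with a mean of 10 or more and a range of 3 or more log2 units. The 5 highest Pearson correlations of log2(value + 1), over 6 libraries that share the same 2 groups and depth, were 0.988 for F41E6.15, 0.983 for *nhr-2*, which encodes a nuclear hormone receptor, 0.969 for Y76G2A.1, 0.968 for F54F7.6 and 0.960 for the F-box gene *fbxc-42*. *nhr-2* had 2.99, 5.91 and 4.68 normalized counts in wild type replicates 1, 2 and 3 and 50.3, 12.4 and 28.0 in knockout replicates 1, 2 and 3. Each of these 5 genes had its highest value in knockout replicate 1 and its lowest knockout value in replicate 2. None of the 5 passed limma (adjusted p = 0.0599 to 0.141), while the authors' deposited table calls all 5 higher (adjusted p = 6.29e-05 to 0.0366). Unlike *skr-7*, all 5 were read in every wild-type library. These genes were chosen for following *skr-7*, so their differences between the genotypes are a description.

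**Figure D4:**
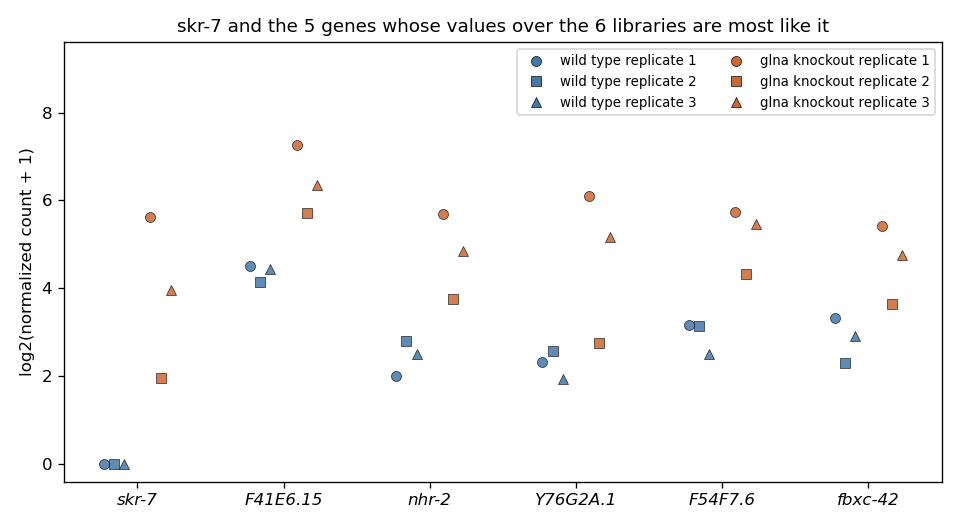
Log2(normalized count + 1) of *skr-7* and of the 5 genes with the highest Pearson correlation with it over the 6 libraries (0.960 to 0.988); blue symbols are wild type and orange symbols the knockout. In each gene knockout replicate 1 (circle) is highest, and only *skr-7* lies at 0 in wild type.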

How the data were processed

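The members and lists were chosen with earlier results of these data known. Per the submitters' processing notes, HISAT2 2.0.5, featureCounts 1.5.0-p3 and DESeq2 1.20.0 were used with the build WBcel235, beside CASAVA 1.8 and StringTie 1.3.3b; their roles are not given in the sources used here. Per the labels' protocols, libraries came from the NEBNext Ultra RNA kit, with no statement that strand is kept.

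Per the file headers and values, the signal columns hold the authors' normalized counts. The deposited log2 fold changes, p-values and adjusted p-values are the authors' own. Gene lengths are deposited. Each column divided by its smallest value above 0 came out whole, within 0.01 read, for 100% of its entries. Symbols were matched for 21059 IDs through RefSeq locus tags and Ensembl 115.

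With limma 3.58.1 (R 4.3.3), a trended empirical Bayes fit was made to log2(value + 1) of genes with a mean of at least 10; p-values were adjusted by Benjamini and Hochberg and called under 0.05. This scale understates changes of low genes. Intervals cover counting error only, and ratios to a floor (3 reads) cover that of the wild-type reads alone. Named genes were the members, all other *skr* genes, called list members or, where none was called, the 2 most abundant and the 2 with the smallest p, genes beside the members (called, and the 2 largest differences), and the 5 genes most like *skr-7*; *cul-1*, *pals-5* and Y47D7A.15 were added after their values were seen. Alternatives were quantile normalization, other filters and pseudocounts, a replicate block, edgeR 4.0.16 and DESeq2 1.42.0 on the recovered reads, the authors' adjusted p and leaving out each library. The fits were tested on simulated counts. Figures used Python 3.11.15 and matplotlib 3.10.9.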

Additional observations from a re-analysis of the deposited data

How the results depend on the processing

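The log2 difference of *skr-7* was 3.84, and 2.01 with a pseudocount of 5, 4.75 with one of 0.5, 7.41 in edgeR and 6.92 in both DESeq2 and the authors' deposited table, which treat zeros differently; without any one library it ranged from 2.95 to 4.78. The other members gave 65 values under the alternatives, 54 of them within 1 SD of the main value. All 65 were positive, but nothing is read from the sign. For *skr-8*, *skr-13* and *skr-14* it was set in advance, as they had no wild-type read. The number of genes called, 54, was 164 without a filter, 19 at a mean of at least 50, 19 with a pseudocount of 0.5, 9 in edgeR and 1236 in both DESeq2 and the authors' deposited table, and 0 to 247 without any one library; the cause was not tested. Counts in the lists were also small. Other *skr* genes called were 0, and 1 in both DESeq2 and the authors' deposited table. Cullin-RING core genes called were 0, and 1 in both DESeq2 and the authors' deposited table. Genes beside the members called were 1, and 3 without a filter, 0 at a mean of at least 50, 0 with a pseudocount of 0.5, 0 in edgeR, 5 in both DESeq2 and the authors' deposited table, and 0 to 2 without any one library. With the replicate block 688 genes were called, with 1 other *skr* gene and 3 genes beside the members. The numbers were not taken as pairs because no pairing is stated. Same-numbered libraries of the 2 groups correlated at 0.20, -0.02 and 0.29, and different-numbered ones at -0.37 to 0.13. These correlations do not decide whether the numbers are pairs. With 129 knockout reads and 7 wild-type reads over all members, depth limits every comparison among them.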

Other observations

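The reverse pattern, reads in every wild-type library and none in the knockout, was met by 51 of the 648 listed genes with no knockout read. Each of the 648 had a wild-type read, as genes without any read are not listed. The most reads were those of *nstp-7*, with 1, 22 and 26 reads in wild type replicates 1, 2 and 3, and of the F-box gene *fbxa-208*, with 18, 8 and 1. Among the 81 genes read in the knockout alone, those with at least 20 reads were 6: *skr-7*, *skr-14*, B0281.5 (24 reads), *skr-15*, T04A11.2 (20 reads) and *athp-3* (20 reads). Further down the list stood *fkh-3*, of the forkhead transcription factor family, with 6, 5 and 4 reads in knockout replicates 1, 2 and 3. These genes were named after their values were seen.

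Beside *skr-10*, *sams-2*, annotated as a pseudogene in the table, had 1.99, 2.96 and 2.81 normalized counts in wild type replicates 1, 2 and 3 and 14.04, 12.4 and 15.4 in knockout replicates 1, 2 and 3, below the filter on low values.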
